A study of Mus musculus with 2 samples.

Results

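The 9 genes described here are Trp63, Itga6, Itgb4, Sox2, Sox15, Wnt10a, Gja1, Lgr6 and Shh. They are linked to the basal layer of tongue epithelium, its attachment to the basement membrane, or cells that leave it for a taste bud. They were chosen by name, and all 9 had a row among the 23394 genes of the count table of sorted tongue cells. RNA came from tongue epithelium of Pkd2l1-tdTomato mice on a C57BL/6 background, in which a red fluorescent protein marks sour taste cells, the cells that express the channel gene Pkd2l1. Cells with tdTomato formed the sour pools and the single sour cells, and cells without it, which were other taste cells and supporting cells, formed the control pools. The labels do not say how the reporter was built or in which further cells it is active. All groups carried the same reporter, a pool held 50 to 100 sorted cells, and age, sex and treatment are not given. The table held 2 sour pools, 4 control pools and 56 single sour cells. The labels name no animals, so the pools are separate sorts of unstated origin, and p-values measure only the spread between these libraries, which may be technical.

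Taste receptor cells are renewed throughout life from basal keratinocytes, the dividing cells that sit on the basement membrane of the tongue. Basal cells hold themselves to that membrane with hemidesmosomes, in which the integrin chains encoded by Itga6 and Itgb4 pair, and they keep their identity through the transcription factor p63, encoded by Trp63. Cells that leave the basal layer for a taste bud pass through a Shh-positive state, and Sox2 is required for taste bud cells to form. Sour cells are the type III cells of the bud, which sense acid and form synapses with nerve fibres.

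Promoter sequences are shown for a gene still read in both sour pools (Sox2) and for 2 genes without a read in either (Gja1 and Sox15). Each is the 250 bases before the RefSeq start of the gene, read 5′ to 3′ on its plus strand, from GRCm38.p6. RefSeq promoters were at hand for 4 of the 9 genes. Capitals mark matches on either strand to 6 motifs: AP-1 (TGANTCA), the SOX core (ACAAT), the GC box (GGGCGG), the CCAAT box (CCAAT), the TATA box (TATAAA) and the TCF/LEF core (CTTTGA).
Sox2, chr3:34649745-34649994: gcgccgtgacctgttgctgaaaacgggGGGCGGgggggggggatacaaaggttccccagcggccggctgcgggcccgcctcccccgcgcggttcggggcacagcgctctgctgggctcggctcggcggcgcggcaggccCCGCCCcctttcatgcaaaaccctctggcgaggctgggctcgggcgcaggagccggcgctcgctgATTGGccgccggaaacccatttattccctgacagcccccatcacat
Gja1, chr10:56377050-56377299: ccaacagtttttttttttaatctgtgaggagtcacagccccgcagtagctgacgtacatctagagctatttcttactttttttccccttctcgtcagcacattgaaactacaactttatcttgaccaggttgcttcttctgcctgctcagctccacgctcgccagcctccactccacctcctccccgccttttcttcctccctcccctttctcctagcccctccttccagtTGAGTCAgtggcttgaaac
Sox15, chr11:69654787-69655036: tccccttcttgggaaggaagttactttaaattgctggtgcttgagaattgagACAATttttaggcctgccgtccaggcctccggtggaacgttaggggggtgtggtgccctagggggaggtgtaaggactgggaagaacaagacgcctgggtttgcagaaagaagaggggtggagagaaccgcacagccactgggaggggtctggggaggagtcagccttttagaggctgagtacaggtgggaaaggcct
The Sox2 window was 72.0% G or C and held 2 GC boxes and 1 CCAAT box, which occur in 32.7% and 33.8% of 32851 RefSeq promoter windows of the same length. The Gja1 window was 50.0% G or C and held 1 AP-1 match, found in 6.7% of all windows. The Sox15 window was 55.6% G or C and held 1 SOX core match, found in 27.7%. The TATA letters occur in 12.4% and the TCF/LEF letters in 13.8% of all windows, and neither was found in these 3. A match describes letters only and is not evidence of binding.

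Sour pools had 403166 and 188503 reads on genes, and control pools had 343757 to 680954. Levels are given as counts per 1000000 gene reads (CPM). Pkd2l1 itself had 5129 and 2557 CPM in the sour pools and 0 to 14.5 CPM in the control pools, and the summed level of 9 type III markers was 20346 and 13936 CPM against 2.94 to 26.2 CPM. Keratinocyte markers were high in the control pools and taste cell markers low: 6 basal keratinocyte markers summed to 32882 to 43575 CPM there and to 412 and 281 CPM in sour pools, while 9 type II taste cell markers summed to 69.5 to 189 CPM and 4 type I markers to 32 to 89.2 CPM. Most of the type II sum came from Itpr3 (48.1 to 173 CPM in control pools). The type II marker Pou2f3 had 5.82 to 21.4 CPM in control pools and no sour read. Plcb2, Gng13, Tas1r3 and Tas1r1 had at most 1 read in a pool. The taste-specific type II genes Trpm5, Gnat3 and Tas1r2 had no read in any pool of either group. A control pool is therefore a mixture of cell types, and in such bulk samples fewer cells of a type and less RNA per cell cannot be told apart. Sour pool 1 also held myeloid RNA, with 4122 CPM summed over 8 myeloid markers against 5.30 CPM in sour pool 2, most of it from the macrophage lysozyme gene Lyz2 (3822 CPM).

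In the sour pools 4 kinds of outcome were seen among the 9 genes. Sox15, Wnt10a and Gja1 had no read at all in either sour pool, and Trp63 and Itgb4 had 2 and 5 reads. Itga6 and Sox2 were read in both sour pools. Lgr6 had at most 18 reads in a pool, and Shh had no read in any of them. By edgeR's quasi-likelihood test 6 of the 7 genes that could be tested fell (a 2-fold or larger change with an adjusted p under 0.05), and none rose, also at an unadjusted p under 0.05 or by DESeq2. Among all 7739 genes tested, 14.4% fell and 15.0% rose by the same rule. A gene was tested when its level reached 26.5 CPM in at least 2 pools. Trp63, Itgb4, Sox15, Wnt10a, Gja1 and Lgr6 passed that filter through the control pools alone, so the count of 6 is a description and carries no weight as support. Itga6 passed it in both groups, and Sox2 and Shh in neither.

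The 3 transcription factors did not behave alike: Trp63 and Sox15 fell, and Sox2 showed no difference beyond its error. Trp63 lies on chromosome 16 (GRCm38, 25683763 to 25892102, plus strand) and encodes p63, the regulator that keeps stratified epithelia in their basal state. Its level was 0 and 10.6 CPM in the sour pools and 501, 462, 184 and 387 CPM in control pools 1, 2, 4 and 6. The lowest control pool was thus far above both sour pools. The 2 reads of the sour pools against 719 of the control pools give a ratio of 119.5-fold, with a counting interval of 33 to 989, and the log2 change was -6.66 ± 0.83 (SE; adjusted p = 3.67e-05, edgeR's quasi-likelihood test). The size rests on those 2 reads, both in sour pool 2: it was -5.20 without sour pool 1 and -10.40 without sour pool 2, where the group has no read and the value depends on the prior count.

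Sox15, a SOX-family transcription factor of stratified epithelium, lies on chromosome 11 (69655314 to 69656727, plus strand). It had 0 CPM in both sour pools and 327, 276, 339 and 288 CPM in the control pools. The control pools were close to each other (307.6 ± 30.7 CPM, SD, n = 4). Against a floor of 3 reads over both sour pools (5.07 CPM) it was at least 60.7-fold lower (log2 change -9.94 ± 0.85 SE, a fitted value that depends on the prior count; adjusted p = 2.50e-06, edgeR's quasi-likelihood test). The last exon of Sox15 shares 31 bases with Mpdu1 on the other strand, and the strand used in counting is not given in the sources used here. Mpdu1 averaged 54.7 ± 17.3 CPM in sour pools (n = 2) against 58.5 ± 7.68 CPM in controls (n = 4).

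Sox2, on chromosome 3 (34650405 to 34652461, plus strand), encodes the SOX factor that taste progenitors and many taste cells need. It had 12.4 and 15.9 CPM in the sour pools, from 5 and 3 reads, and 8.81, 23.6, 24.1 and 20.4 CPM in the control pools, from 6 to 9 reads. The groups overlapped, because control pool 1 was below both sour pools. The means were 14.2 ± 2.48 CPM (SD, n = 2) and 19.2 ± 7.13 CPM (SD, n = 4), and an exact two-sided permutation test gave p = 0.40, where the smallest p that 2 against 4 pools allow is 0.0667. Without the filter, the log2 change was -0.54 with a 95% interval of -2.50 to 1.42 (adjusted p = 0.741, edgeR's quasi-likelihood test). That interval leaves room for a 2-fold change in either direction, so no difference was detectable at this depth.

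Sox2 lies inside Sox2ot, a long noncoding RNA gene on the same strand with which it shares no exon bases in GENCODE M21. Sox2ot, named after its values were seen, had 136 and 159 CPM in the sour pools and 1.47, 0, 0 and 0 CPM in the control pools. It rose with a log2 change of 7.40 ± 0.78 (SE; adjusted p = 8.56e-06, edgeR's quasi-likelihood test). The gene around Sox2 therefore differed between the groups where the reads on Sox2 itself did not show a difference.

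Of the 32 epithelial and taste lineage transcription factors listed, 25 were tested, 15 fell and 7 rose. Their median log2 change was -3.17 against -0.01 over all tested genes, of which 14.4% fell and 15.0% rose. Without Trp63 and Sox15, 13 of 23 fell. Pax9, a patterning factor of tongue epithelium, had no read in sour pools and 305.9 ± 36.1 CPM in control pools (n = 4; at least 60.3-fold lower; adjusted p = 2.88e-06, edgeR's quasi-likelihood test). Foxa2, a forkhead factor of endodermal epithelia, rose, with 389 ± 72.8 CPM in sour pools (n = 2) and 2 reads in control pools (adjusted p = 1.12e-06, edgeR's quasi-likelihood test). Sox21, a further SOX-family gene, had no sour read, but its control level of 13.5 ± 9.97 CPM (n = 4), with 0 in control pool 4, was too low to be tested. Grhl2, a general epithelial regulator, was read in both groups (83.7 ± 35.9 against 89.9 ± 39.7 CPM) and did not pass the test (adjusted p = 0.906, edgeR's quasi-likelihood test). The list is thus made of genes that go in both directions.

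The integrin chains that pair in the hemidesmosome did not move alike. Itgb4, on chromosome 11 (115974709 to 116008412, plus strand), encodes integrin β4, whose long tail links the membrane to keratin filaments. It had 12.4 and 0 CPM in the sour pools and 545, 659, 227 and 349 CPM in the control pools. The sour mean of 6.20 ± 8.77 CPM (SD, n = 2) was 71.8-fold below the control mean of 445 ± 193 CPM (SD, n = 4). The log2 change was -5.76 ± 0.73 (SE; adjusted p = 3.95e-05, edgeR's quasi-likelihood test). All 5 sour reads were in sour pool 1, and without it the log2 change was -10.46, a value that depends on the prior count. A noncoding gene on the other strand, B230344G16Rik, shares 537 exon bases with Itgb4 and has no row of its own.

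Itga6, on chromosome 2 (71745616 to 71858416, plus strand), encodes integrin α6, which can pair with β4 or with β1. It had 47.1 and 37.1 CPM in the sour pools and 109, 97.1, 82.9 and 122 CPM in the control pools. The groups did not overlap, as held for 22.9% of tested genes with sour pools below control pools, but the gap was small. The sour mean of 42.1 ± 7.07 CPM was 2.44-fold below the control mean of 102.7 ± 16.7 CPM (SD, n = 2 and 4; log2 change -1.29 ± 0.46 SE; adjusted p = 0.0490, edgeR's quasi-likelihood test). This call was at the edge of the threshold and held under 2 of 10 alternatives, with adjusted p from 0.0279 to 0.199. Leaving out 1 pool ended it for sour pool 1 (adjusted p = 0.155), sour pool 2 (0.199), control pool 1 (0.0948), control pool 2 (0.0798) and control pool 6 (0.101), each by edgeR's quasi-likelihood test. The exact permutation p of this 1 gene was 0.133, with 0.0667 the smallest possible.

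Of 19 genes of hemidesmosomes and basement membrane adhesion, 16 were tested, 8 fell and none rose (median log2 change -1.49). None rose at an unadjusted p under 0.05 or by DESeq2. Among all tested genes 14.4% fell and 15.0% rose. The count of 8 includes Itgb4 and the unstable call of Itga6, and without these genes 6 of 14 fell. Col17a1, the transmembrane collagen of the hemidesmosome, had no sour read and 1435 ± 623 CPM in control pools (n = 4; at least 283-fold lower; adjusted p = 2.88e-06, edgeR's quasi-likelihood test). The hyaluronan receptor gene Cd44 fell 42.9-fold, from 533 ± 101 to 12.4 ± 17.5 CPM, and Fermt1, an integrin activator of epithelia, had no sour read against 72.9 ± 17.8 CPM. Cd151, a tetraspanin that binds laminin-receptor integrins, averaged 507 ± 11.3 CPM in sour pools against 481 ± 156 CPM in controls (log2 change 0.04; adjusted p = 0.945, edgeR's quasi-likelihood test). Itgb1, the other partner of α6, had 422 and 95.5 CPM in the sour pools, on either side of the control mean of 158 ± 80.3 CPM (n = 4; log2 change 0.71; adjusted p = 0.399, edgeR's quasi-likelihood test), and was named after its values were seen. Dst, whose epithelial form anchors keratin at hemidesmosomes while other forms serve neurons and muscle, was at 109 ± 71.0 against 79.0 ± 26.5 CPM (adjusted p = 0.528, edgeR's quasi-likelihood test).

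Gja1, on chromosome 10 (56377330 to 56402513, plus strand), encodes connexin 43, a gap junction channel that couples neighbouring epithelial cells. It had 0 CPM in both sour pools and 2010.4, 1821, 596 and 2918 CPM in the control pools. The control pools differed among themselves, with pool 4 lowest and pool 6 highest (1836 ± 955 CPM, SD, n = 4), but all were far above the sour pools. Sour pools were at least 362-fold lower, with a fitted log2 change of -12.52 ± 1.24 (SE; adjusted p = 7.84e-06, edgeR's quasi-likelihood test) that depends on the prior count. A total of 223 tested genes (2.88%) had no read in either sour pool.

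Of 14 connexin and pannexin genes 6 were tested, 4 fell and none rose, also at an unadjusted p under 0.05 or by DESeq2. Without Gja1, 3 of 5 fell, and among all tested genes 14.4% fell. Gja1 and Gjb5 were among those that fell. Gjb5, an epidermal connexin gene with 1 sour read and 27.4 ± 10.1 CPM in control pools, lost its call in edgeR's quasi-likelihood test without sour pool 1 (adjusted p = 0.324) and with plate as a block (0.0594), and in DESeq2 (0.0749). Gjb2 (6.55 ± 5.75 against 26.1 ± 6.71 CPM) and Panx1, a channel gene of the pannexin family (143 ± 30.3 against 76.6 ± 38.7 CPM), did not pass the test (adjusted p = 0.107 and 0.219, edgeR's quasi-likelihood test).

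Of the signalling ligands, Wnt10a had a strong signal and Shh none. Wnt10a, on chromosome 1 (74791516 to 74804179, plus strand), encodes a Wnt protein needed for tongue papillae and other ectodermal organs. It had 0 CPM in both sour pools and 471, 459, 428 and 323 CPM in the control pools. Control pools were close to each other (420.3 ± 67.5 CPM, SD, n = 4), and sour pools were at least 82.9-fold lower (log2 change -10.39 ± 0.84 SE; adjusted p = 1.58e-06, edgeR's quasi-likelihood test). Of 31 genes of Wnt and R-spondin signalling 17 were tested, 8 fell and none rose (median log2 change -2.67), also at an unadjusted p under 0.05. Without Wnt10a and Lgr6, 7 of 15 fell, and among all tested genes 14.4% fell. DESeq2, run without the filter, called 1 gene higher, the Wnt inhibitor gene Nkd1 (adjusted p = 0.0110). Dkk3, a Dickkopf-family gene, had 3 sour reads and 268 ± 47.2 CPM in control pools. Wnt4, a further Wnt ligand, and Lef1, a transcription factor that acts with β-catenin, had 1 sour read each, against 100.7 ± 30.5 and 74.5 ± 25.1 CPM. The shared machinery was read in both groups: Ctnnb1, the gene of β-catenin, at 352 ± 17.7 against 404 ± 91.5 CPM, and Wls, which carries Wnt proteins to the cell surface, at 144 ± 45.8 against 161 ± 31.5 CPM (adjusted p = 0.662 and 0.787, edgeR's quasi-likelihood test).

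Shh, on chromosome 5 (28456815 to 28467256, minus strand), had no read in the 6 pools. A count of 0 allows up to 5.07 CPM over the sour pools and 1.69 CPM over the control pools. Of 14 Hedgehog pathway genes 3 could be tested, each through the level of its control pools, so that their falls carry no weight as a count (14.4% of all tested genes fell). They were Gas1 and Boc, which encode co-receptors for Hedgehog ligands, and Smo, the signal transducer. Gas1 fell 9.62-fold, from 121 ± 52.9 to 12.6 ± 10.3 CPM (adjusted p = 0.00239, edgeR's quasi-likelihood test). Boc and Smo had no sour read and only 48 ± 20.6 and 38.4 ± 13.2 CPM in control pools, so their falls are bounded at 9.47-fold and 7.58-fold.

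Lgr6, on chromosome 1 (134983301 to 135105276, minus strand), encodes an R-spondin receptor that marks stem cells of skin and tongue. It had 4.96 and 0 CPM in the sour pools and 0, 47.2, 8.02 and 32 CPM in the control pools. Control pool 1, the most deeply read library of the pools, had none, so the groups overlapped. The 2 sour reads against 32 control reads give a ratio of 5.32-fold with a counting interval of 1.36 to 45.8, and the log2 change was -2.67 ± 1.56 (SE; adjusted p = 0.231, edgeR's quasi-likelihood test). It passed the threshold in none of the 8 alternatives that gave a fit. Lgr4, the broadly expressed relative of Lgr6, had 50.7 ± 22.9 CPM in control and 1.24 ± 1.75 CPM in sour pools (log2 change -4.74; adjusted p = 0.00394, edgeR's quasi-likelihood test), and was named after its values were seen.

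**Figure D1:**
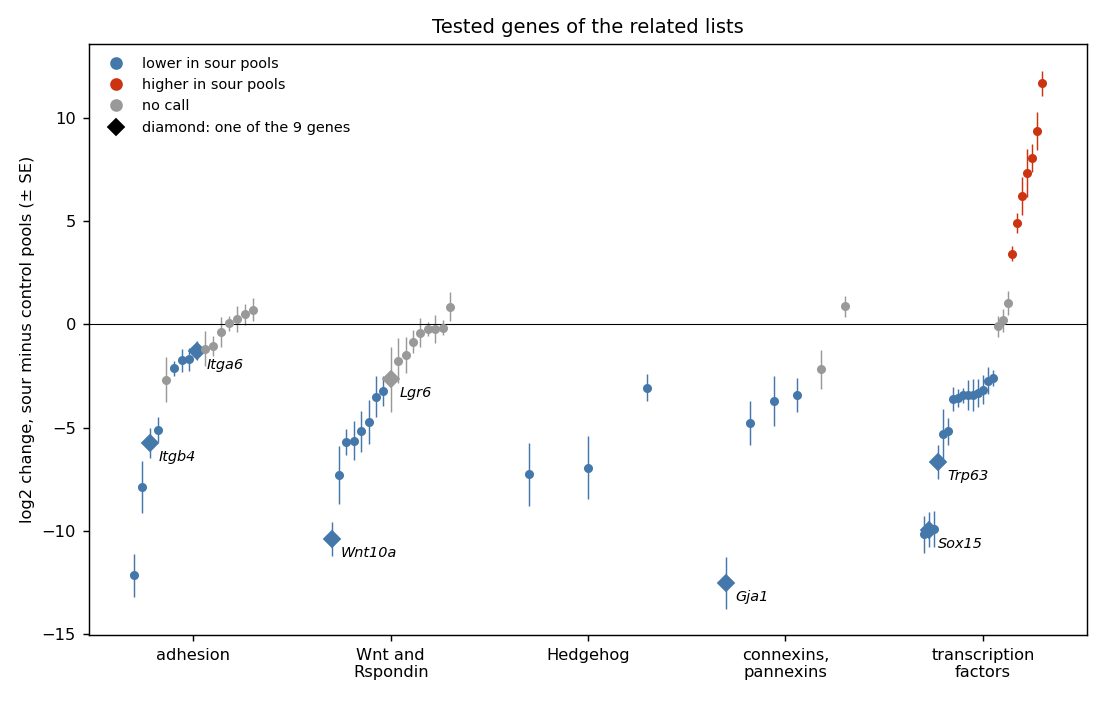
Log2 change between sour and control pools, with its SE, for each tested gene of 5 lists, ordered within each list and coloured by call, with diamonds for the 7 tested genes described here. Adhesion, Wnt, Hedgehog and connexin genes were lower or not called, and the transcription factors moved both ways. The values of genes with no sour read depend on the prior count.

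Per kilobase of exon, the order of the 9 genes in control pools was Gja1 at 545 CPM per kb (range 177 to 866), Sox15 at 357 (320.0 to 394), Wnt10a at 170.3 (131 to 191), Itgb4 at 69.7 (35.6 to 103), Trp63 at 45.7 (22 to 59.7), Itga6 at 23.5 (19 to 28), Sox2 at 9.34 (4.28 to 11.7), Lgr6 at 3.24 (0 to 7.02) and Shh at 0. The ranges of Gja1 and Sox15 overlapped, as did those of Itgb4 and Trp63, of Trp63 and Itga6, and of Sox2 and Lgr6, while Sox15 and Wnt10a, Wnt10a and Itgb4, and Itga6 and Sox2 were apart. In sour pools the order was different: Itga6 led at 9.66 CPM per kb (8.52 and 10.8), followed by Sox2 at 6.88 (6.03 and 7.74), and Itgb4, Trp63 and Lgr6 were at 0.971, 0.632 and 0.369. The pair at the top of the sour order stood sixth and seventh among the control pools. As a share of the control mean, the sour pools held 73.7% of Sox2, 41% of Itga6, 11.4% of Lgr6, 1.39% of Itgb4 and 1.38% of Trp63.

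The genes most like each member over the 6 pools, by Pearson's r of log2(CPM + 1), were found among all other tested genes. For Trp63 they were Cd109 and Erbb2, for Itga6 Pdlim2 and Zfp750, for Itgb4 Kctd15 and Ckap2l, for Sox15 Ncaph and Fam64a, for Wnt10a Ehd2 and Acsbg1, and for Gja1 Icam1 and Sgk1, with r from 0.9972 to 0.9998. For Lgr6 they were Nipal4 (r = 0.9726) and Abracl (r = 0.9512). With 6 points in 2 groups such values mostly restate the gap between the groups. Sgk1 was, like Gja1, highest in control pool 6 (779.6 CPM) and lowest in control pool 4 (283 CPM).

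Markers of other cells also differed between the pools, where 14.4% of all tested genes fell. Of the 6 basal keratinocyte markers 5 fell, led by Krt14 (19328 ± 2721 against 142 ± 24.8 CPM; adjusted p = 4.63e-07, edgeR's quasi-likelihood test), Krt15 and Krt5, the keratins of the basal layer. Of 9 tested suprabasal tongue keratinocyte markers 8 fell, and their summed level was 41247 to 62132 CPM in control and 1602 and 2419 CPM in sour pools. Of 9 proliferation genes 7 fell, among them Cdc20 (644 ± 152 against 6.55 ± 5.75 CPM), Ccnb1 and Top2a. These named genes passed the filter through the control pools alone, and 3 others of the list had no sour read. The count of 7 therefore carries no weight as support. The replication genes Mcm2 (98.7 ± 51.1 against 83.6 ± 95.7 CPM) and Pcna (76.7 ± 48 against 24.9 ± 24.7 CPM) did not pass (adjusted p = 0.886 and 0.0982, edgeR's quasi-likelihood test). Of 2 tested stromal genes Dcn fell 49.5-fold from 2590 ± 234 CPM. The other, Vim, was read in every pool (68.7 ± 60.2 against 48.7 ± 1.32 CPM) and did not pass (adjusted p = 0.647, edgeR's quasi-likelihood test). Of the 9 stromal and endothelial markers listed, 2 were at 0 in all pools, the stromal marker Col3a1 and the endothelial marker Cdh5. Of 3 tested myeloid genes H2-Ab1 was called lower, but not without control pool 2 (adjusted p = 0.106) or sour pool 2 (0.121) in edgeR's quasi-likelihood test, nor by DESeq2 (0.0871). The 1 tested gene of type II cells and the 1 of type I cells were not called. The part of these cell types in the levels of the 9 genes was not tested. Leaving out sour pool 1, which held the myeloid RNA, left 5 of the 9 genes called lower, with Itga6 no longer among them.

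The single sour cells show which of the 9 genes were read in individual tdTomato-positive cells. Of 56 cells, 52 had reads on at least 1000 genes and were kept. The 56 had 219578 to 914244 gene reads each (median 462283), which is as many reads as a pool had. The kept cells had reads on 1049 to 6467 genes and the pools on 10288 to 11729, so similar read numbers did not give similar detection. There were no single control cells, no animals are named, and the cells count as 1 sample, so no test between conditions is possible. Shares of cells with at least 1 read carry exact (Clopper-Pearson) 95% intervals that cover counting error only. At least 1 of the 9 genes was read in 40 of the 52 cells (76.9%, 63.2 to 87.5%), and the number per cell ran from 0 to 7 with a median of 1. Of the kept cells, 51 had reads of Pkd2l1, and 26 had reads of all 9 type III markers.

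Gja1, absent from both sour pools, was the most often read of the 9 genes in single sour cells. It was read in 29 of 52 cells (55.8%, 41.3 to 69.5%), with a median of 3.77 CPM over all cells, a median of 621 CPM over cells with a read, and a highest value of 7074 CPM in cell 319. In 22 cells it had 10 reads or more. Its mean over cells, 805 CPM, was 43.8% of the control pool mean, but 3 cells held 53.4% of its reads, and over the 35 cells without a read of Trp63, Itgb4, Sox15 or Wnt10a the mean was 114 CPM and the median 0. Of the 223 tested genes without a sour pool read, Gja1 ranked first in the single cells both by mean level and by share of cells, followed by mean level by Dsg1a, a desmosomal cadherin gene, and Jag1, a Notch ligand gene. The median share among these 223 genes was 5.77%.

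Sox2 and Itga6, both read in the sour pools, came next. Sox2 was read in 22 cells (42.3%, 28.7 to 56.8%) with a highest value of 222 CPM and a mean of 27 CPM, or 141% of the control pool mean. Sox2ot was read in 32 cells (61.5%, 47 to 74.7%), and 15 cells held both. Itga6 was read in 15 cells (28.8%, 17.1 to 43.1%) with a highest value of 432 CPM and a mean of 40.2 CPM, or 39.1% of the control pool mean. That mean was close to the 41% in sour pools, but 3 cells held 53.2% of the Itga6 reads and the median over all cells was 0 CPM. Both genes were thus read in both kinds of library, but only for Itga6 were the means close. The Sox2 mean was 73.7% of the control pool mean in sour pools, from 8 reads, against 141% in single cells. The median of Sox2 over all cells was also 0 CPM, and 7 of its 22 cells had under 10 reads.

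Trp63 was read in 13 cells (25%, 14 to 38.9%), at 1.55 to 464 CPM where present. Wnt10a was read in 10 cells (19.2%, 9.63 to 32.5%), Sox15 in 8 (15.4%, 6.88 to 28.1%) and Itgb4 in 6 (11.5%, 4.35 to 23.4%). Their mean levels over cells were 12.0%, 3.16%, 3.68% and 1.39% of the control pool means for Trp63, Wnt10a, Sox15 and Itgb4. The median share of cells was 19.2% over genes called lower in the pools and 38.5% over all tested genes, so these shares are of the size common among genes that fell. Among the 223 tested genes without a sour pool read, whose median share was 5.77%, Wnt10a ranked 9 and Sox15 ranked 18 by share of cells. Lgr6 was read in 1 cell, number 372, at 88.2 CPM from 49 reads. No cell of the 52 held a read of Shh, a result that 3 cells, or a share of 5.77%, would still allow (6.85% by the exact interval). This limits cells with a read, not cells that express the gene.

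**Figure D2:**
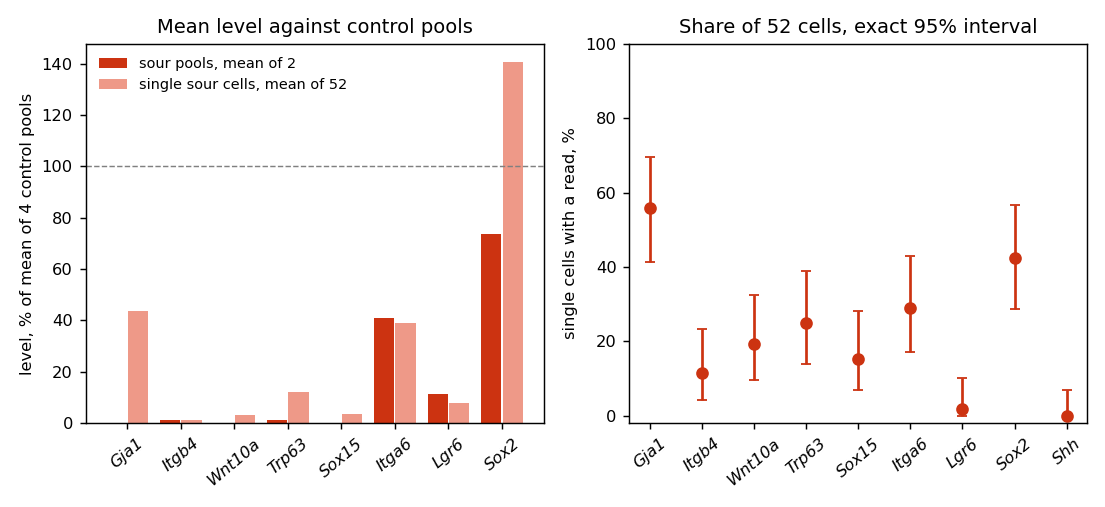
Left, mean level in sour pools (dark) and single sour cells (light) as a percentage of the control pool mean, for the 8 genes with a control read, with a dashed line at 100%. Right, share of 52 single cells with a read, with exact 95% intervals. Itga6 is at about the same height in pools and cells, Sox2 is the highest in both, and Gja1 is at 0 in sour pools and at 43.8% in single cells.

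The basal genes were read together in the same few cells. Of the 52 cells, 35 had no read of Trp63, Itgb4, Sox15 or Wnt10a, 8 had 1 of these 4 genes, 3 had 2, 1 had 3 and 5 had all 4. Every one of the 6 cells with Itgb4 also held Trp63, Wnt10a and Gja1, where the product of the shares would give 1.5 cells with both Itgb4 and Trp63. All 13 Trp63 cells held Gja1, Krt14 and Krt15, and 12 of them held Krt5. All 8 Sox15 cells and all 10 Wnt10a cells held Gja1, and the 8 Sox15 cells also held Krt14. The 5 cells with all 4 genes also had 8 of the 9 type III markers each and 181 to 750 reads of Pkd2l1, but their summed type III level was 3271 to 10349.5 CPM (median 5737 CPM), against 4375 to 26664 CPM (median 15085 CPM) in the 35 cells with none of the 4.

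Gja1 and Sox2 were not limited to those cells. In the 35 cells without Trp63, Itgb4, Sox15 and Wnt10a, Gja1 was read in 12, with 8 of them at 10 reads or more and a highest value of 989 CPM. Sox2 was read in 14 of the 35 and Itga6 in 6. Without the 9 cells that held at least 2 of the 4 genes, an alternative added after the data were seen, 46.5% of 43 cells held Gja1, 37.2% Sox2 and 20.9% Itga6. Those 9 cells had reads on 1760 to 6467 genes, and 1 of them, cell 341, had no read of Pkd2l1 or of the proton channel gene Otop1 and 4 of the 9 type III markers.

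**Figure D3:**
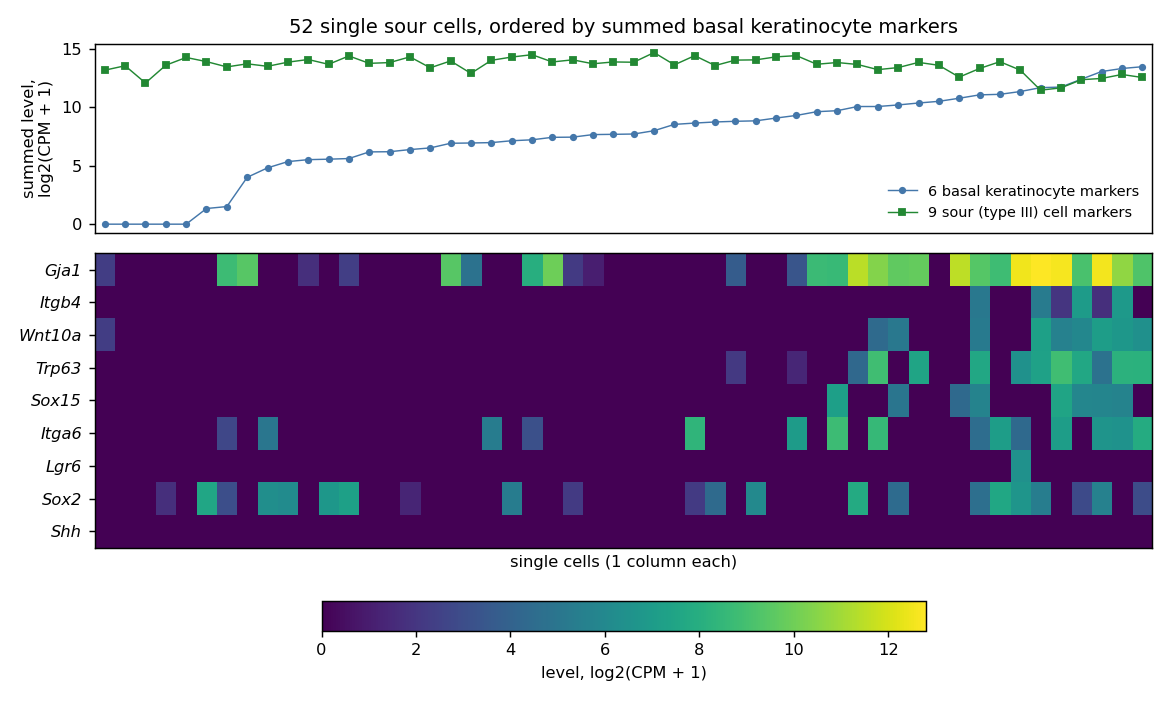
Level of each of the 9 genes in each of the 52 single sour cells, as log2(CPM + 1), with the summed levels of 6 basal keratinocyte and 9 type III markers above, and cells ordered from left to right by the basal sum. Reads of Itgb4, Wnt10a, Trp63 and Sox15 mostly gather at the right, whereas Gja1, Sox2 and Itga6 extend across cells that hold none of them. Cell 306, with 1 read of Wnt10a and a basal sum of 0, lies at the left.

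The α6 chain was read with either partner. Of the 6 cells with Itgb4, 4 held Itga6, where the product of the shares would give 1.73 cells, and 11 of the 15 Itga6 cells had no Itgb4 read. All 15 Itga6 cells held Itgb1. Itgb1 was itself read in 43 of the 52 cells (82.7%, 69.7 to 91.8%), so that its presence in Itga6 cells is close to its general frequency.

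Across the 52 cells the levels of Trp63, Gja1, Wnt10a and Sox15 varied with keratin RNA. No correlation is given for Itgb4, which was read in 6 cells. Spearman's rho with the summed level of the 6 basal keratinocyte markers was 0.68 for Trp63, 0.61 for Gja1, 0.54 for Wnt10a, 0.53 for Sox15, 0.43 for Itga6 and 0.11 for Sox2. The link was not particular to basal markers. With the suprabasal sum rho was 0.57 for Gja1, 0.52 for Trp63, 0.49 for Sox15, 0.44 for Wnt10a, 0.17 for Itga6 and 0.13 for Sox2. With the summed level of the type III markers it was -0.62 for Wnt10a, -0.46 for Trp63, -0.45 for Gja1 and Sox15, -0.14 for Itga6 and -0.07 for Sox2. With the number of gene reads it was 0.00 for Trp63 and -0.01 for Gja1. With the number of genes read it was 0.40 for Sox15 and Wnt10a, 0.35 for Trp63, 0.33 for Gja1, 0.27 for Itga6 and 0.23 for Sox2. These are descriptions over cells of 1 sample, in which all levels share a cell's total. The basal marker sum ran from 0 to 11499 CPM (median 208 CPM), the suprabasal sum from 438 to 44013 CPM, and type III markers summed to 2860 to 26664 CPM. Trpm5, which defines type II cells, had no read in any cell. In the 35 cells without the 4 genes the basal marker sum was 0 to 2231 CPM and in the 5 with all 4 it was 2162 to 10349.6 CPM, and Krt14 was read in 12 of the 35 and in all 5. Whether keratinocyte RNA accompanied some sorted cells was not tested.

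**Figure D4:**
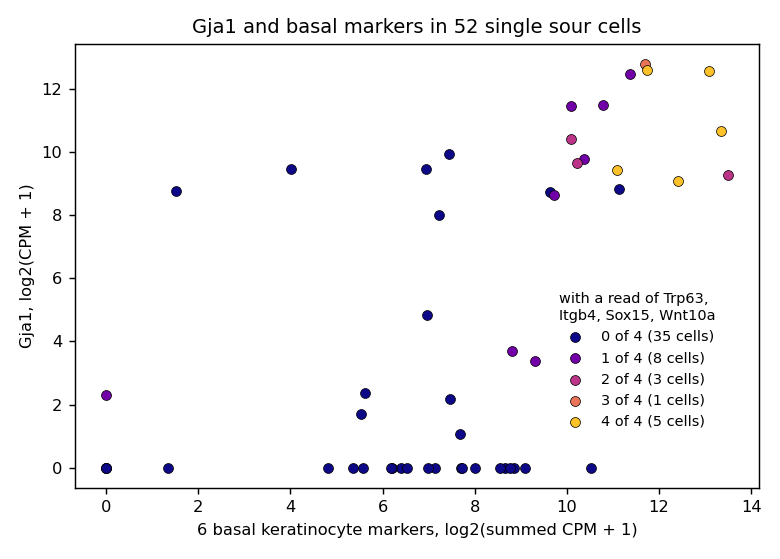
Gja1 level against the summed level of 6 basal keratinocyte markers in each of 52 single sour cells, both as log2(CPM + 1), coloured by how many of Trp63, Itgb4, Sox15 and Wnt10a had a read. The 9 cells with at least 2 of the 4 genes all lie in the upper right, and 8 cells with none of them have at least 10 reads of Gja1, several at low marker sums.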

How the data were processed

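RNA was read from sorted tongue cells with a low-input SMART-Seq kit and Nextera XT libraries, per the labels' protocols. The authors deposited raw read counts per gene symbol, for which the submitters' processing notes name STAR, HTSeq and the mouse build GRCm38, also called mm10; versions, settings and counting strand are not given in the sources used here. The ganglion table of the series was not used. Of 12 pools in the labels, 6 had columns. Symbols turned into dates (27), 92 spike-in rows, 5 summary rows and 3 reporter rows were left out. The date rows held at most 3.10% of a library's reads, and reads outside genes made up 13.1 to 18.6% of counted reads in pools and 19.5 to 47.8% in single cells. No columns were identical.

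Pools were compared with edgeR 4.0.16 (R 4.3.3; quasi-likelihood test, TMM scaling, filterByExpr) over 7739 genes with Benjamini-Hochberg adjustment, and a call needed an adjusted p under 0.05 and a 2-fold change. The fit was tested on simulated data. CPM use all gene reads of a library, and the pseudocount was 1 CPM. Where a group had no read, folds are bounds against 3 reads over the group, and with 1 to 3 reads the ratio of summed reads has a counting interval. Alternatives used DESeq2 1.42.0, its size factors in edgeR, no filter, each pool left out, and plate as a block. Positions and exon lengths came from GENCODE M21 and promoters from RefSeq. Single cells needed 1000 genes with a read. Doublets were not called, since 52 cells are too few for a caller.

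The genes, lists and naming rule were chosen with earlier results of these data known. The rule named, per list, up to 3 called genes with the smallest p and up to 2 uncalled genes with the highest control level, and for each tested member the 2 genes most like it. Genes outside it are marked as named after their values were seen. Lyz2, Sox21, the type II markers other than Itpr3 and the genes listed at 0 were also named after their values were seen. A few list genes covered by this rule are left out of the text.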

Additional observations from a re-analysis of the deposited data

Results flagged for a closer look

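Among 56 genes with values in the 4 control pools (members and named list genes), 4 had 1 pool far from the other 3 by Dixon's test, which chance alone gives in about 1 of 20 groups. Smo, the Hedgehog transducer, was at 18.7 CPM in control pool 4 and at 43.6 to 47.2 CPM in the others. The other 3 were the myeloid genes H2-Ab1 (606 CPM), Cd74 (706 CPM) and Csf1r (81.4 CPM), all high in control pool 2. None of the 9 progenitor and adhesion genes was among them.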

How the results depend on the processing

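Of the 9 genes, 6 fell in the fit as reported and 5 to 6 under each of 10 alternatives. Trp63, Itgb4, Sox15, Wnt10a and Gja1 were called in all 10, Itga6 in 2, and Lgr6 in none of 8. Leaving out each pool in turn gave 5 to 6 genes lower, and 52 to 63 of the list genes lower (59 as reported) and 15 to 17 higher (16). DESeq2, DESeq2 size factors in edgeR and no filter each gave 5. With plate as a replicate block, over the 5 pools of plates 1 and 3, 6 fell; the plates come from the labels' library numbers, not from animals. Without sour pool 1 the median of all genes moved to -0.26 on the log2 scale. The share of single cells with any of the 9 genes was 63.5% with a minimum of 10 reads, 71.2% with cells thinned to 200000 reads, 75.0% in all 56 cells and 82.1% in cells with at least 3000 genes. No direction reversed. Depth limits Sox2, Lgr6 and Shh: 3 reads equal 7.44 and 15.9 CPM in the sour pools.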

Other observations

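Several genes had a higher mean level in the single sour cells than in the sour pools. Gja1, Wnt10a and Sox15 had 0 reads in both sour pools and 23013, 346 and 306 reads over the 52 cells, and Trp63 was at 1.38% of the control pool mean in sour pools and 12.0% in cells. The 52 cells together had far more gene reads than the 2 sour pools, so these read numbers are not on 1 scale. Over the summed reads of the cells, Gja1, Wnt10a and Sox15 were at 895, 13.5 and 11.9 CPM. The floor of 3 reads over the sour pools was 5.07 CPM. Cell 319 held 20.6% of the Gja1 reads and 3 cells held 53.4%. Gjb2 was read in 12 cells (23.1%) with a mean of 51.9 CPM, against 6.55 CPM in sour pools, and cell 319 held 43.1% of its reads. Sox2 was at 73.7% of the control pool mean in sour pools, from 8 reads, and at 141% in cells. Pools and single cells are separate libraries of unstated animals, so the kind of library, its share of reads outside genes and the sorted cells themselves cannot be told apart.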
